A study of Mus musculus with 2 samples.

Results

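The genes described here encode cytochrome P450 enzymes of families 1 to 4. They were taken as all rows typed as mRNA whose symbol is Cyp, a family number of 1 to 4, a subfamily letter or letters, and a closing number. Of 35129 gene symbols in the tables, 71 matched, of which 57 had a value above 0 in either library and 32 had a mean of at least 1 FPKM (read number scaled to the length of the gene model and the size of the library) over both libraries and are called measured in what follows. The values come from RNA sequencing of primary hepatocytes of C57BL/6 mice. One library came from cells infected with an adenovirus that carries an expression vector for KLF14, a transcription factor of the zinc finger type (Ad-KLF14). The other came from cells infected with a control adenovirus, labelled GFP and described in the design text as an empty vector (Ad-GFP). Cells of both groups are therefore virus infected. The age and sex of the mice, the promoter of the vector, the dose of virus and the time after infection are not given in the sources used here.

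Cytochrome P450 enzymes are haem proteins of the endoplasmic reticulum that insert an oxygen atom into their substrates with electrons from the reductase Por, helped by cytochrome b5. Families 1 to 3 are known above all for the oxidation of drugs, toxins and steroids, and family 4 for the hydroxylation of fatty acids and leukotrienes at or near the end of the chain. In the liver many of them are controlled by ligand-activated receptors, with AhR (Ahr) acting on family 1, CAR (Nr1i3) on Cyp2b, PXR (Nr1i2) on Cyp3a and PPARalpha (Ppara) on Cyp4a. Hepatocytes taken into culture are known to lose much of their P450 expression.

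Each group holds 1 library, so the spread between cultures is unknown, the conditions could not be tested against each other, and each difference below describes these 2 libraries. Intervals beside a ratio are 95% counting intervals of the reads recovered from the FPKM values, cover counting error only, and leave out any difference between cultures. The recovered library sizes were 11151711 reads with Ad-KLF14 and 11311344 reads with Ad-GFP. Klf14 was at 13164 FPKM with Ad-KLF14, against 0.298 FPKM with Ad-GFP. All 8 hepatocyte markers were detected, with albumin, Alb, at 4172 against 5115 FPKM. Of the markers of other cells, 5 of 6 Kupffer cell and macrophage, 2 of 6 endothelial, 2 of 5 cholangiocyte, 1 of 6 stellate cell and fibroblast and 1 of 6 retina markers reached a mean of 1 FPKM.

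As a group the P450 genes had similar levels with and without KLF14. Differences were taken as log2 ratios of FPKM + 1, a scale that makes differences of low genes look smaller than they are. None of the 32 measured members was at least 2-fold higher with Ad-KLF14, where 6.37% of all 12419 genes that passed the same limit of 1 FPKM were. The members at least 2-fold lower were 2, Cyp4f18 and Cyp4v3, where 8.99% of all genes were. As a count, therefore, the members past 2-fold were no more frequent than among all genes. A further 24 of the 32 lay within 1.5-fold, a range that held 62.3% of all genes. Of the 32, 18 were below 0 and 14 above, and 51.7% of all genes were below 0. The median log2 ratio of the members was −0.23, beside −0.03 over all genes, and the range ran from −2.50 for Cyp4f18 to 0.84 for Cyp4f17. With the ratio of the plain FPKM values in place of log2(FPKM + 1), Cyp2d22 and Cyp2c70 were also at least 2-fold lower (4 members in all, against 12.5% of all genes) and Cyp2a4 was 2-fold higher (1 member, against 9.35% of all genes). The 95% counting interval of the ratio lay below 1 for 11 members and above 1 for 5, against 37.8% and 33.9% of all genes, and it held 1 for the other 16. Recovered reads are mostly lower limits, for members and for all genes, so intervals may be too wide and too many may hold 1. Where a multiple of the smallest whole reads was taken to match a transcript length, reads could also be too high and intervals too narrow.

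**Figure D1:**
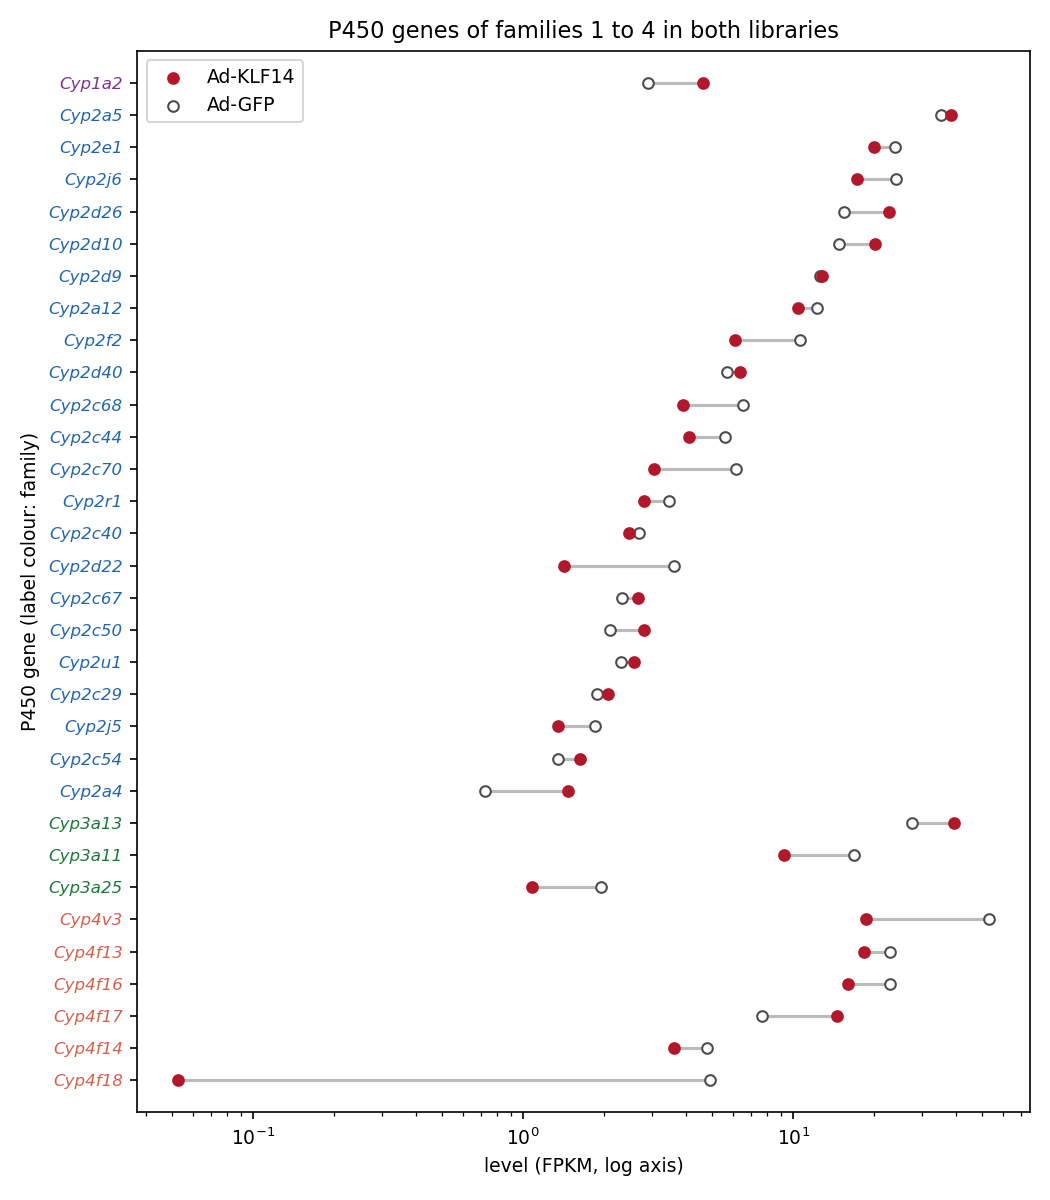
Level of the 32 measured P450 genes, in FPKM on a log axis, with a filled point for the Ad-KLF14 library and an open point for the Ad-GFP library, grouped by family (label colour). Most pairs of points lie close together, while Cyp4f18 is at 0.0527 FPKM with Ad-KLF14 and 4.93 FPKM with Ad-GFP.

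**Figure D2:**
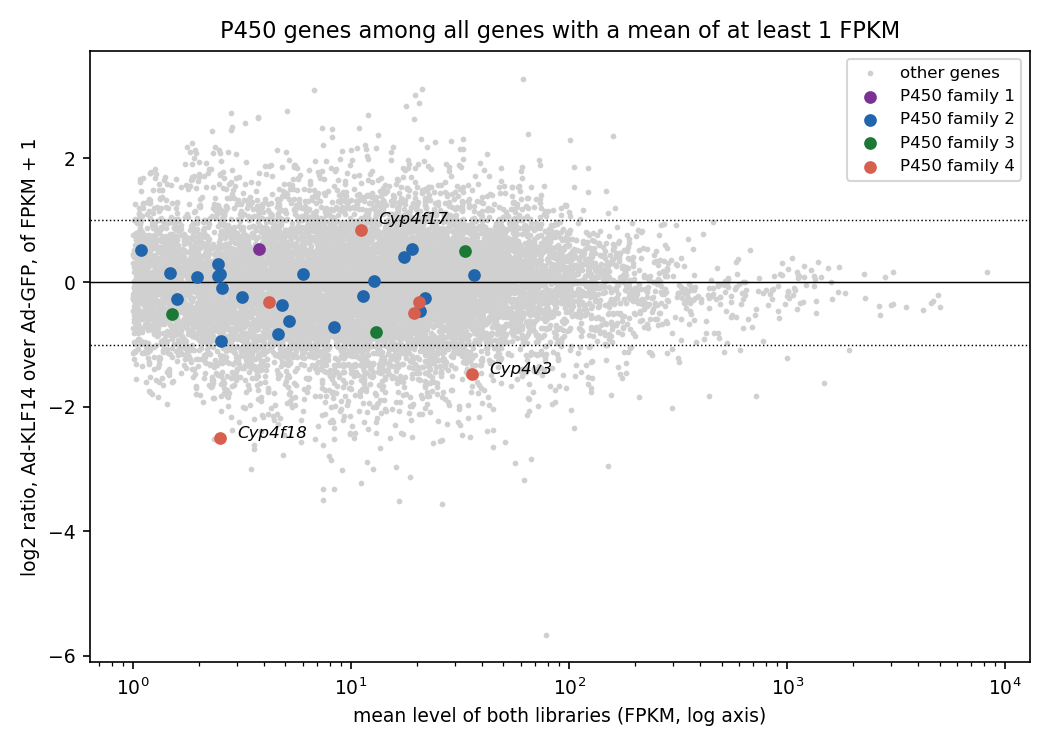
Log2 ratio of FPKM + 1, Ad-KLF14 over Ad-GFP, against the mean level of both libraries in FPKM on a log axis, for all measured genes other than Klf14 (grey) and the P450 genes (coloured by family). Dotted lines mark 2-fold, and Cyp4f18 and Cyp4v3 are the P450 genes outside them.

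Family 4 held the widest range of ratios, with 6 of its 16 matched genes measured. Cyp4f18, known in the mouse as the enzyme that hydroxylates the chemoattractant leukotriene B4 in neutrophils, was nearly absent from the Ad-KLF14 library. Its level was 0.0527 FPKM with Ad-KLF14, from 1 read, and 4.93 FPKM with Ad-GFP, from 95 reads. That is 93.7-fold lower with an interval of 16.4 to 3738, whose upper end is wide because it rests on a single read. Its log2 ratio is −2.50 with the pseudocount of 1 FPKM and −0.98, short of 2-fold, with one of 5 FPKM. The implied length of its gene model, 1702 bases, equals that of a GENCODE transcript. Since Cyp4f18 is known from white blood cells, the marker lists of such cells are given beside it. The 5 measured Kupffer cell and macrophage markers summed to 185 FPKM with Ad-KLF14 and 117 FPKM with Ad-GFP, with Cd68 at 160 against 71.1 FPKM and Mpeg1 at 17.1 against 40.1 FPKM. Of 15 neutrophil markers, a list added after values were seen, 3 reached a mean of 1 FPKM and summed to 11.6 FPKM with Ad-KLF14 and 9.02 FPKM with Ad-GFP, and Mpo, Ly6g and S100a9 were at 0 in both libraries. The part of such cells in the Cyp4f18 value was not tested. In RNA of a whole culture, fewer cells of a type and less RNA per cell cannot be told apart.

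Cyp4v3, a hydroxylase of medium-chain and polyunsaturated fatty acids whose human counterpart CYP4V2 is mutated in a crystalline retinal dystrophy, had the highest level of all P450 genes in the Ad-GFP library and ranked below Cyp3a13 and Cyp2a5, among others, in the Ad-KLF14 library. It was at 18.6 FPKM with Ad-KLF14, from at least 609 reads, against 53.2 FPKM with Ad-GFP, from at least 1763 reads. This is 2.85-fold lower, with an interval of 2.60 to 3.13 that does not reach down to 2. Of its windows of 36 bases, 7.37% also occur in transcripts of another gene. Neighbouring coding genes were looked at after the values of Cyp4v3 and Cyp4f18 were seen. Those next to Cyp4v3 were also lower with Ad-KLF14 where they were detected in both libraries, where 51.7% of all genes were below 0. Their log2 ratios of FPKM + 1 ran from −0.52 to −0.89, so none was past 2-fold on that scale. Coagulation factor XI, F11, was at 28.0 against 40.6 FPKM, Fam149a at 4.65 against 9.47 FPKM, Tlr3, a receptor for double-stranded RNA, at 3.27 against 5.19 FPKM and Sorbs2 at 48.1 against 83.5 FPKM. Plasma kallikrein, Klkb1, was at 0.834 against 1.68 FPKM. Next to Cyp4f18, the genes detected were higher with Ad-KLF14, with Zfp617 at 14.6 against 11.3 FPKM and Zfp882 at 1.31 against 0.853 FPKM.

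The other measured family 4 genes belong to the Cyp4f subfamily, which is known for omega-hydroxylation of leukotrienes and long fatty acids. Cyp4f17 had the largest positive log2 ratio of all 32 genes and was at 14.5 FPKM with Ad-KLF14 against 7.68 FPKM with Ad-GFP (ratio 1.89, interval 1.54 to 2.33). Its neighbours in the same gene cluster went the other way. Cyp4f16 was at 15.9 against 22.8 FPKM (ratio 0.700, interval 0.613 to 0.798), and Cyp4f13 was at 18.2 against 22.9 FPKM (ratio 0.797, interval 0.690 to 0.919). Cyp4f14 was at 3.63 against 4.78 FPKM, with an interval of 0.570 to 1.01 that holds 1. Of the 36-base windows of Cyp4f16, 34.9% also occur in transcripts of another gene, mainly Cyp4f37, so its reads could have been shared out. The share was 8.71% for Cyp4f17 and 2.58% for Cyp4f18. Below 1 FPKM in the cluster of Cyp4f13 to Cyp4f17, Cyp4f15 was at 0.210 against 0.746 FPKM from 5 and 18 reads, 3.55-fold lower (interval 1.27 to 12.2). No Cyp4a gene, the PPARalpha targets of the family, reached a mean of 1 FPKM. Cyp4a10 was at 0.344 against 0.381 FPKM from 8 and 9 reads, and Cyp4a14 was listed at 0 in both libraries.

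**Figure D3:**
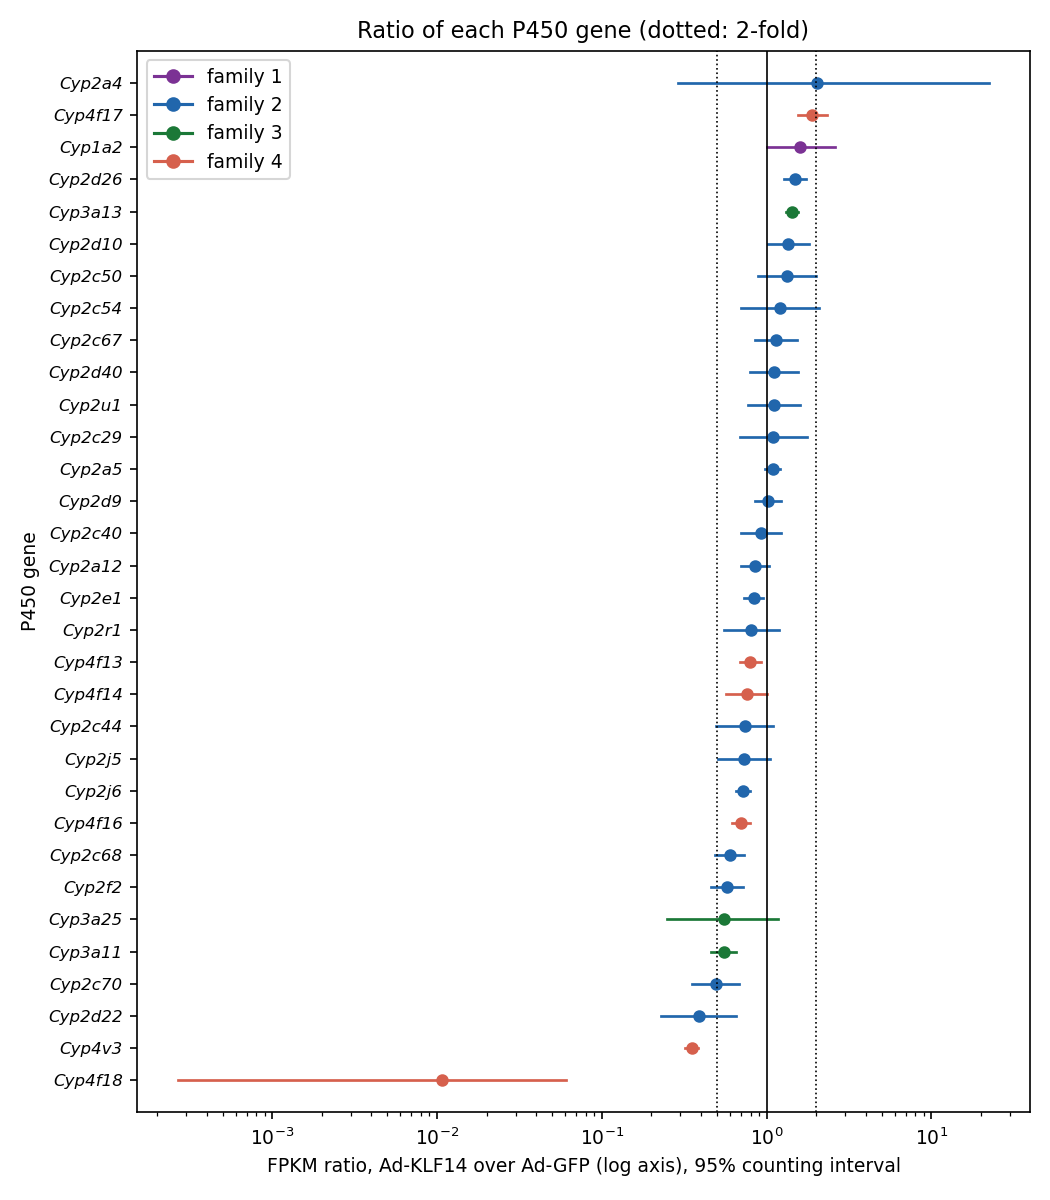
Ratio of the FPKM values, Ad-KLF14 over Ad-GFP, for the 32 measured P450 genes on a log axis, ordered by ratio and coloured by family, with bars for the 95% counting interval of the recovered reads. Dotted lines mark 2-fold, and 16 of the 32 bars cross 1.

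The promoters of both genes past 2-fold are shown here with that of Cyp2d26, the gene with the largest positive log2 ratio that has a promoter in the table used, and that of Cyp2a5, the gene with the highest mean level. They differ in kind: the Cyp4v3 window holds 17 CpG pairs and a GC box, and those of Cyp2a5 and Cyp2d26 hold a TATA box and 2 and 1 CpG pairs. Each runs from 250 bases before to 50 after the start of the RefSeq gene, on the GRCm38.p6 build and on the minus strand except for Cyp2a5, and was matched by symbol. Capitals mark GC boxes (GGGCGG) and CACCC boxes (CACCC), the letters bound by KLF and SP factors in general, on either strand. The windows lie at chr8:72009577-72009876 (Cyp4f18), chr8:45333114-45333413 (Cyp4v3), chr15:82794196-82794495 (Cyp2d26) and chr7:26835089-26835388 (Cyp2a5).
Cyp4f18: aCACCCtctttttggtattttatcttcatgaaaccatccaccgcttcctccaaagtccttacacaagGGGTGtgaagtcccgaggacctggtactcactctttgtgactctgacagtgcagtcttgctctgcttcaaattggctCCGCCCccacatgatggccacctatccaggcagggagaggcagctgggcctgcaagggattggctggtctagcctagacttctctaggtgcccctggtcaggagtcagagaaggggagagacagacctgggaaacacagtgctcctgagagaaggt
Cyp4v3: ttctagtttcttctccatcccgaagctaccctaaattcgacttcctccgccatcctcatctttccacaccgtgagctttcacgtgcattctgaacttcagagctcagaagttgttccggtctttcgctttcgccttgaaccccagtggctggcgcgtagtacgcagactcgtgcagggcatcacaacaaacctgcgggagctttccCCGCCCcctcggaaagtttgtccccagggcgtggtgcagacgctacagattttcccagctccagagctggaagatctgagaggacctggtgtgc
Cyp2d26: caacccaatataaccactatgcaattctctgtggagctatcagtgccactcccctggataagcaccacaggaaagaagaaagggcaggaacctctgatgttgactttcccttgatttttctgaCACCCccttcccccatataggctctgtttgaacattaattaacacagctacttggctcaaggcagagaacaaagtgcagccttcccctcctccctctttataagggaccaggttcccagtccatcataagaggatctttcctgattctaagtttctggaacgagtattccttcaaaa
Cyp2a5: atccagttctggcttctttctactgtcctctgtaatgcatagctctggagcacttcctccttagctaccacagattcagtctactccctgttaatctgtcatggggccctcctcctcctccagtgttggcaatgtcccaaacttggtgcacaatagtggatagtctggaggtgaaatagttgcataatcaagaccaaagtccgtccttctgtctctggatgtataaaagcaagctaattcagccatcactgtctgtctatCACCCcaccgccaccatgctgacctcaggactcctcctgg

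Of the 32 measured genes 27 had a window in the table, while Cyp4f17, Cyp2c44, Cyp2d22, Cyp2u1 and Cyp2c54 are named only. A TATA box (TATAAA on either strand) was found in 15 of the 27 windows (55.6%), against 7.13% of the windows of 8031 measured genes and 14.2% of all 27025 genes in the table. All 15 belong to families 1 to 3, where 15 of 22 windows held it and 2 of 22 held a GC box. In family 4, 0 of 5 windows held a TATA box and 4 of 5 a GC box. The GC box was found in 6 of the 27 windows in all (22.2%), against 65.8% of measured genes and 35.9% of all genes. The CACCC box was found in 12 of 27 (44.4%), against 62.1% of measured genes and 56.7% of all genes, and a GC box and a CACCC box can share bases. The core of the xenobiotic response element bound by AhR (GCGTG on either strand) was found in 5 of 27 (18.5%), against 52.7% of measured genes and 32.5% of all genes. The median number of CpG pairs in a window was 2 for the members and 21 for measured genes, and only Cyp4v3 and Cyp2r1 had at least 10. The median share of G and C in a window was 49% for the members and 61% for measured genes. Many members are also close relatives that lie in the same clusters, so their windows are not independent. How far either bears on the shares above was not tested. A match of letters is a description and no sign that a factor binds there.

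In family 2, 22 of 45 matched genes were measured, 11 on either side of 0, and none was past 2-fold on log2(FPKM + 1). The Cyp2d subfamily, which in humans metabolises many drugs through CYP2D6, had 4 of 5 measured members above 0 and a median log2 ratio of 0.13. Cyp2d26 was at 22.7 FPKM with Ad-KLF14 against 15.4 FPKM with Ad-GFP (ratio 1.48, interval 1.27 to 1.73), and Cyp2d10 was at 20.1 against 14.8 FPKM (ratio 1.36, interval 1.03 to 1.80). Cyp2d9, a steroid 16alpha-hydroxylase typical of male mouse liver, was level at 12.8 against 12.5 FPKM, and Cyp2d40 was at 6.35 against 5.70 FPKM. Cyp2d22 was the exception, at 1.42 FPKM against 3.64 FPKM from at least 22 and 57 reads, 2.55-fold lower (interval 1.54 to 4.39). Cyp2d22 lies in the same cluster as the others. At least 20% of the windows of Cyp2d9, Cyp2d10 and Cyp2d40 are shared with other genes (41.4%, 50.5% and 24.7%), and 7.29% of those of Cyp2d22.

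The Cyp2c subfamily, which oxidises drugs, arachidonic acid and bile acids, had 15 matched and 8 measured members, 4 above and 4 below 0, with a median log2 ratio of 0.00. Those with intervals below 1 were Cyp2c70 and Cyp2c68. Cyp2c70, the enzyme that makes the muricholic acids typical of mouse bile, was at 3.04 FPKM with Ad-KLF14 against 6.16 FPKM with Ad-GFP, from at least 58 and 119 reads. It was 2.02-fold lower (interval 1.47 to 2.82), and none of its windows occurs in another gene. Cyp2c68 was 1.67-fold lower (interval 1.36 to 2.05) at 3.90 against 6.52 FPKM, unlike its closest relatives. Cyp2c40 was at 2.46 against 2.68 FPKM and Cyp2c67 at 2.65 against 2.33 FPKM, and the windows shared with other genes made up 56.3% of Cyp2c68, 80.9% of Cyp2c40 and 63.2% of Cyp2c67, so the split of reads among these genes is uncertain. Cyp2c44, which makes epoxides of arachidonic acid and is now named Cyp2c23, was at 4.11 against 5.58 FPKM (interval of the ratio 0.490 to 1.10). Cyp2c50, Cyp2c29 and Cyp2c54 were at 2.80 against 2.10, 2.06 against 1.88 and 1.62 against 1.35 FPKM, with intervals that hold 1. Cyp2c55, a target of CAR and PXR below the limit of 1 FPKM, was at 0.924 against 0.489 FPKM from at least 41 and 22 reads (ratio 1.89, interval 1.10 to 3.33).

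In the Cyp2a subfamily, Cyp2a5, the mouse coumarin 7-hydroxylase, had the highest mean of all 71 genes and was level, at 38.4 FPKM with Ad-KLF14 against 35.2 FPKM with Ad-GFP (ratio 1.09, interval 0.982 to 1.21). The steroid 7alpha-hydroxylase Cyp2a12 was at 10.4 against 12.3 FPKM (interval of the ratio 0.696 to 1.03). Cyp2a4, a steroid 15alpha-hydroxylase, was the measured gene closest above the limit, at 1.46 against 0.722 FPKM. Its smallest whole reads are 4 and 2, with an interval of 0.291 to 22.4. They imply a length of 245 bases, against 1738 bases for the reference transcript. The true reads of Cyp2a4 may therefore be more and its interval too wide, so whether it holds 1 is uncertain. Just below the limit, Cyp1a1 had a mean of 0.806 FPKM. Reads of Cyp2a4 and Cyp2a5 are hard to tell apart, since their coding sequences differ at 23 of 1482 positions (98.4% identical), and 52.1% of the windows of Cyp2a4 and 53.7% of those of Cyp2a5 occur in other genes. The first 120 coding bases, from GENCODE M21 on GRCm38, show how little separates them. The single differing base is in capitals, and each run reads 5′ to 3′ from the start codon.
Cyp2a5: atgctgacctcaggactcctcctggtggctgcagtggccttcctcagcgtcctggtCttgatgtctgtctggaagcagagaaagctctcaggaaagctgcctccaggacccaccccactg
Cyp2a4: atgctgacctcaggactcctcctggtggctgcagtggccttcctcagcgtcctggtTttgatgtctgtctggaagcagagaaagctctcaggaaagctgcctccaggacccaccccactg

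Cyp2b10, the classical target gene of CAR, stayed below the limit of 1 FPKM and was seen almost only with Ad-GFP. It was at 0.0479 FPKM with Ad-KLF14, from 1 read, against 0.945 FPKM with Ad-GFP, from at least 20 reads (19.7-fold lower, interval 3.15 to 817). CAR itself, Nr1i3, was at 0.127 FPKM with Ad-KLF14 from 2 reads and listed at 0 with Ad-GFP, both under the floor of 3 reads, so no difference was detectable. The other 4 matched Cyp2b genes were below 0.2 FPKM in both libraries, and Cyp2b13 and Cyp2b19 were listed at 0 in both.

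Of the 6 remaining measured family 2 genes, all but Cyp2u1 were lower in the Ad-KLF14 library. Cyp2f2, which activates naphthalene and in liver is typical of the periportal zone, was 1.74-fold lower (interval 1.39 to 2.19), at 6.11 against 10.6 FPKM. Cyp2j6 was 1.39-fold lower (interval 1.26 to 1.54), at 17.3 against 24.0 FPKM, and Cyp2j5, which makes epoxides of arachidonic acid, was at 1.35 against 1.84 FPKM with an interval that holds 1. Cyp2e1, which oxidises ethanol and is typical of the pericentral zone, was at 19.9 against 23.8 FPKM (ratio 0.835, interval 0.728 to 0.957). The vitamin D 25-hydroxylase Cyp2r1 was at 2.81 against 3.48 FPKM and the fatty acid hydroxylase Cyp2u1 at 2.58 against 2.31 FPKM, with intervals that hold 1 for both.

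In family 3, the drug and steroid hydroxylases, 3 of 7 matched genes were measured and did not share a direction. Cyp3a13 was at 39.3 FPKM with Ad-KLF14, the highest of the 71 genes in that library, against 27.5 FPKM with Ad-GFP (ratio 1.43, interval 1.31 to 1.55). Cyp3a11, the main PXR target in mouse liver, was at 9.22 against 16.8 FPKM, from at least 211 and 390 reads, 1.82-fold lower (interval 1.54 to 2.16). Cyp3a25 was at 1.07 against 1.94 FPKM from at least 12 and 22 reads, with an interval of 0.250 to 1.17. Cyp3a13 lies apart from the cluster that holds the other family 3 genes. PXR itself, Nr1i2, was at 6.67 against 4.79 FPKM (ratio 1.39, interval 1.11 to 1.75), the opposite direction to Cyp3a11.

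In family 1, which oxidises aromatic hydrocarbons, Cyp1a1 and Cyp1a2 are neighbours on the chromosome and lay on opposite sides of 0. Cyp1a2, the form made by unstimulated liver, was at 4.64 FPKM with Ad-KLF14 against 2.90 FPKM with Ad-GFP, from at least 49 and 31 reads (ratio 1.60, lower end of the interval 1.002). Cyp1a1, the strongly inducible form, was below the limit at 0.399 against 1.21 FPKM from 12 and 37 reads, 3.04-fold lower (interval 1.55 to 6.40). Cyp1b1 had 1 read with Ad-KLF14 and was listed at 0 with Ad-GFP. The receptor gene Ahr was at 4.33 against 11.2 FPKM, from at least 265 and 698 reads, a ratio of 0.385 (interval 0.333 to 0.444). Of 5 measured AhR targets outside the P450 genes none was past 2-fold, and the median log2 ratio was 0.10. Tiparp, a target that limits AhR activity, was at 17.1 against 10.2 FPKM (ratio 1.67, interval 1.54 to 1.81), Gsta1 at 64.1 against 44.0 FPKM and Ugt1a6a at 2.56 against 4.12 FPKM, while Slc7a5 had a log2 ratio of 0.10. Ugt1a6a shares exons with the other Ugt1a genes, so its value is uncertain.

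Below the limit of 1 FPKM were 39 of the 71 genes, of which 25 had a value above 0 and 14 were listed at 0 in both libraries. None of the 39 was past 2-fold on log2(FPKM + 1), a scale on which genes this low can hardly reach it. Their intervals excluded 1 in 4 cases, which are Cyp1a1, Cyp2b10, Cyp4f15 and Cyp2c55. The share of all genes below 1 FPKM with such intervals was not counted, so whether 4 is many or few is not known. Cyp2c37 was at 0.541 against 0.775 FPKM and Cyp4b1 at 0.575 against 0.662 FPKM, both with intervals that hold 1. For a gene model 2000 bases long, the floor of 3 reads amounts to 0.135 FPKM with Ad-KLF14 and 0.133 FPKM with Ad-GFP, and lower levels were not detectable at this depth. Of liver P450 genes known to differ between male and female mice, 3 of 5 male-biased genes were measured with a median log2 ratio of 0.03. They were Cyp2u1 at 0.11, Cyp2d9 at 0.03 and Cyp7b1 at −0.60. Only the interval of Cyp7b1 excluded 1 (ratio 0.602, interval 0.455 to 0.791), so the median does not stand for all of them. Of 11 female-biased genes 2 were measured, with a median of 0.22. These are Cyp2c40 at −0.09 and Cyp2a4 at 0.52, which lie on opposite sides of 0, so the median shows no shared direction. Cyp2b10 belongs to the same list but was below the limit. Measured genes that lie in the same cluster are counted here by direction, where 51.7% of all genes were below 0. Several of their ratios have intervals that hold 1, among them all those above 0 in the Cyp2c cluster. The Cyp2d cluster had 4 genes above and 1 below 0, the Cyp2c cluster 4 above and 3 below, the Cyp4f cluster 1 above and 3 below, and the cluster of Cyp2a, Cyp2b and Cyp2f genes 2 above and 2 below. The Cyp2j and Cyp3a clusters had 2 measured genes each, all below 0.

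Genes around the P450 enzymes are counted on log2(FPKM + 1) as above, where 6.37% of all genes were at least 2-fold higher and 8.99% lower. Among those that serve the enzymes, the central electron donor Por was close in both libraries, while others lay on either side. Por was at 76.8 FPKM with Ad-KLF14 against 83.9 FPKM with Ad-GFP (ratio 0.915, interval 0.825 to 1.01). The mitochondrial ferredoxin Fdx1, which serves P450 enzymes of other families, was 4.38-fold lower (interval 3.36 to 5.78), at 7.08 against 31.0 FPKM. Its reductase Fdxr was 1.97-fold lower (interval 1.47 to 2.66), at 3.41 against 6.73 FPKM. Cyb5r1 was 4.14-fold lower (interval 3.60 to 4.79), at 13.3 against 55.3 FPKM, and Pgrmc1, a haem protein that binds P450 enzymes, at 260 against 392 FPKM. Cytochrome b5, Cyb5, was higher at 210 against 146 FPKM (ratio 1.44, interval 1.34 to 1.55). Its mitochondrial form Cyb5b was also higher (ratio 1.33, interval 1.25 to 1.40), as was Pgrmc2 (ratio 1.23, interval 1.11 to 1.36). In all 2 of 9 measured donors and partners were at least 2-fold lower and 0 higher, with a median of −0.13.

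The 27 measured receptors and liver transcription factors that drive P450 genes had a median log2 ratio of 0.17, with 2 past 2-fold on either side. Onecut1, a transcription factor of hepatocytes, was at 3.10 against 0.388 FPKM (7.99-fold higher, interval 3.82 to 19.3). The lower genes were Ahr and Nr0b2, which encodes the repressor SHP and was at 1.84 against 4.82 FPKM. Hnf4a was at 34.1 against 26.2 FPKM, Rxra at 31.3 against 28.3 FPKM, and Ppara at 1.06 against 1.69 FPKM. Targets of CAR and PXR outside the P450 genes went both ways, with 3 of 16 at least 2-fold higher, 3 lower and a median of −0.06. Gadd45b, a stress response gene, was at 190 against 52.7 FPKM, the oestrogen sulfotransferase Sult1e1 at 24.8 against 106 FPKM, Aldh1a7 at 5.09 against 17.2 FPKM, and Papss2, which makes the sulfate donor, at 5.13 against 15.6 FPKM. Of 22 PPARalpha targets 1 was at least 2-fold higher and 0 lower, with a median of 0.08. Large log2 ratios in that list belonged to enzymes of fatty acid oxidation and acyl-CoA hydrolysis. Hadhb was at 31.1 against 13.0 FPKM, Acot2 at 1.92 against 4.82 FPKM and Cpt2 at 8.85 against 17.3 FPKM.

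**Figure D4:**
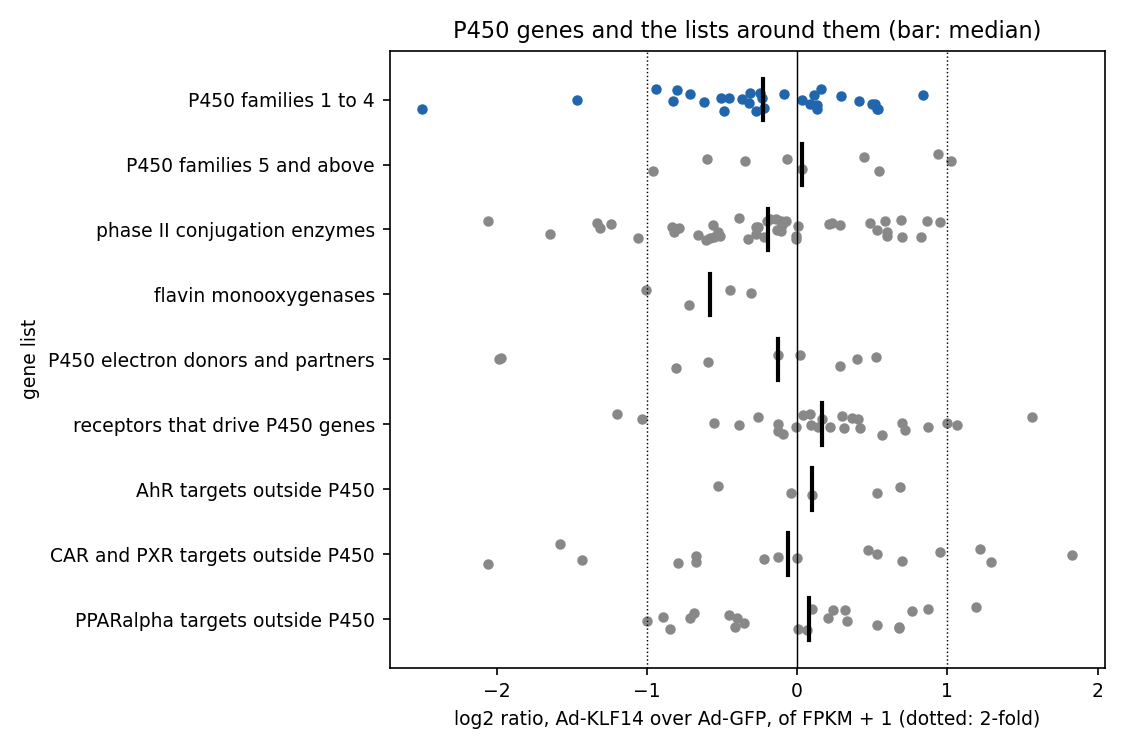
Log2 ratio of FPKM + 1, Ad-KLF14 over Ad-GFP, of each measured gene in the P450 families 1 to 4 (blue) and in the lists around them (grey), with a bar at the median of each list and dotted lines at 2-fold. The P450 genes spread on both sides of 0 with a median of −0.23, and the receptors have a median of 0.17.

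Set beside the most similar genes, the median log2 ratio of −0.23 of the P450 families 1 to 4 was close to that of phase II enzymes and below that of the other P450 families. The 46 measured phase II conjugation enzymes had a median log2 ratio of −0.19. None of them was 2-fold higher and 6 were 2-fold lower, which include Nnmt at 18.2 against 59.2 FPKM, Gstt1 at 9.51 against 25.1 FPKM and Mgst3 at 1.84 against 6.13 FPKM. The 9 measured P450 genes of families 5 and above had a median of 0.04, with 1 at least 2-fold higher and 0 lower on log2(FPKM + 1). On plain FPKM values Cyp21a1, a low gene among them, was 3.13-fold lower. With 1 library per group, these differences between lists were not tested.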

How the data were processed

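RNA of infected mouse primary hepatocytes, 1 library per group, was sequenced from Illumina TruSeq libraries, per the labels' protocols. Bowtie 0.12.2 and the mm8 build were used, per the submitters' processing notes. The design text names TopHat with Cufflinks and BWA with ANOVA, but also speaks of retina and triplicates, and was not relied on. The authors deposited 1 table of FPKM values per library for 35129 symbols, without counts. Whether a table pools cultures, the gene models, and how reads with more than 1 match were counted, are not given in the sources used here.

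Library totals were recovered from the FPKM ratios of genes, since a fixed factor turns each of them into a fraction of whole reads. Totals of 11151711 and 11311344 gave whole reads for 99.9% of 19667 genes above 0 (relative tolerance 1e-11). Multiples of these totals would give whole reads as well, so that share cannot decide between them. These totals were chosen because implied lengths equalled a GENCODE M21 transcript in 13.6% of 4000 sampled genes, against 9.38% for the next best totals. Once multiples of up to 6 were allowed, 17.2% of genes with a reference had an implied length equal to a GENCODE M21 transcript. The smallest whole numbers were used unless a multiple of up to 6 matched a transcript. Smallest numbers are lower limits, so their intervals may be too wide. A multiple that matched a transcript by accident would give too many reads and too narrow an interval. The recovery was also run on simulated libraries in which every gene length was that of a GENCODE transcript, unlike the implied lengths here. Simulated intervals were computed from the true reads and not from recovered ones, so intervals of recovered reads were not tested. Intervals are exact Clopper-Pearson intervals rescaled by the totals. The filter (mean of at least 1 FPKM), the pseudocount of 1 FPKM and the limit of 2-fold were applied to all genes. The members and lists were chosen with earlier results of these data known. Each measured member was named, members below the filter where either library reached 0.5 FPKM, and up to 4 genes per list with the largest ratios. Some list genes are not reported here. Shared windows of 36 bases were counted between the longest GENCODE transcript of a member and transcripts of other genes, for 31 of the 32 measured members. Promoters are those of RefSeq (GRCm38.p6). Python 3.11.15 with numpy 2.4.6, pandas 2.3.3, scipy 1.17.1 and matplotlib 3.10.9 was used.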

Additional observations from a re-analysis of the deposited data

How the results depend on the processing

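With trimmed-mean scaling of log ratios, scaling to the upper quartile or to totals without Klf14, and with a running median along expression removed, 0 members were at least 2-fold higher and 2 lower, and the median stayed between −0.20 and −0.17. With a pseudocount of 0.1 FPKM 3 members were lower. With one of 5 FPKM 1 member was lower, since Cyp4f18 lost its call (log2 ratio −0.98, and −5.04 with 0.1 FPKM), and the median was −0.11. With a mean of at least 5 FPKM 1 member was lower. Without a filter the median of 57 genes was −0.079. At 1.5-fold 1 member was higher and 7 lower, where 16.7% and 20.9% of all genes were. With plain FPKM ratios, chosen after seeing the data, 1 was higher and 4 lower. Of 192 single-gene values under 6 settings 1 changed sign, that of Cyp2c40 (0.03), and Cyp4v3 moved to −1.30 with the pseudocount of 5 FPKM. Leaving out the 12 members that share at least 20% of their windows kept 0 higher and 2 lower, with a median of −0.29. A repeat by protein identity was not run, as no protein table was used here. No paired analysis was possible because each group holds 1 library, and no replicate could be left out. Depth limits genes near 3 reads, such as Cyp2b10 with Ad-KLF14.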

Other observations

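P450 genes outside families 1 to 4 are known for sterols, bile acids, vitamin D and retinoids. Cyp27a1, which starts the acidic pathway of bile acid synthesis, was at 48.2 FPKM with Ad-KLF14 against 23.2 FPKM with Ad-GFP (ratio 2.08, interval 1.86 to 2.32). Cyp26a1, which breaks down retinoic acid, was at 41.3 against 21.1 FPKM (ratio 1.96, interval 1.74 to 2.21), and Cyp51 of cholesterol synthesis was at 29.0 against 19.6 FPKM (ratio 1.48). These levels are in the range of the highest members of families 1 to 4. Cyp7b1, an oxysterol 7alpha-hydroxylase, was at 3.56 against 5.92 FPKM, and Cyp21a1, the steroid 21-hydroxylase of the adrenal gland, 3.13-fold lower (interval 1.79 to 5.76), at 0.793 against 2.48 FPKM.

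All 4 measured flavin monooxygenases, which oxidise nitrogen and sulfur in drugs, were below 0, where 51.7% of all genes were. Fmo5 was at 2.85 against 6.74 FPKM and so 2.36-fold lower (interval 1.97 to 2.85), Fmo4 at 1.05 against 2.37 FPKM, Fmo1 at 7.44 against 9.43 FPKM and Fmo2 at 0.726 against 1.35 FPKM. Alas1, the enzyme that limits haem synthesis and so the supply for P450 proteins, was at 78.6 against 31.5 FPKM (2.50-fold higher, interval 2.31 to 2.69), and was named after its value was seen.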
